A study of Rattus norvegicus with 6 samples.

Results

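The 10 muscle genes described here were studied, probe by probe, in cultured heart muscle cells in which the ultraconserved transcript uc.323 was targeted: the ankyrin repeat genes Ankrd1, Ankrd2 and Ankrd23, the LIM-domain genes Csrp3, Fhl1 and Fhl2, the actin-binding genes Xirp1 and Xirp2, and the calcineurin regulators Rcan1 and Rcan2. They were chosen by name, as genes known to respond to stretch or to calcineurin, and every non-control probe whose transcript accession belongs to one of them was taken. These were 11 of the 30367 probes of the array, covering 9 of the 10 genes. No probe was matched to Xirp1, which is not analysed here. Of the 11 probes, 9 probes of 7 genes passed the filter on dim signals.

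The cells were primary ventricular myocytes of male Sprague-Dawley rats at 1 to 2 days of age, preplated to remove fibroblasts and kept with bromodeoxyuridine, which holds back dividing cells. After 36 h of culture both groups received 50 nmol/L siRNA with Lipofectamine RNAiMAX for 3 h, then stayed without serum for another 21 h. One group received a scrambled siRNA (si-scramble) and the other an siRNA against uc.323 (si-uc.323), 3 cultures each, with 1 single-colour Agilent array per culture. No probe was matched to uc.323, and its knockdown was not analysed here. The study asked which genes act downstream of uc.323 in the enlargement of cardiomyocytes.

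Stretch of a heart muscle cell is sensed in part at the sarcomere, where the giant spring protein titin spans from Z-disc to M-band. The muscle ankyrin repeat proteins (Ankrd1, Ankrd2, Ankrd23) bind the spring of titin and can also enter the nucleus, Csrp3 (muscle LIM protein) sits at the Z-disc, Fhl1 and Fhl2 bind titin and signalling enzymes, and the Xin proteins bind and bundle actin at the intercalated disc. Calcineurin is a calcium-dependent phosphatase that lets NFAT transcription factors enter the nucleus. Rcan1 and Rcan2 encode proteins that bind and restrain it, and transcription from an internal promoter of Rcan1 is itself driven by NFAT, so that Rcan1 is widely used as a readout of calcineurin activity. Ankrd1 and Rcan1 transcripts are classically induced in hypertrophy of the heart.

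The sequences below show the reagent and the promoters of the calcineurin regulators, since NFAT binding to a promoter is what makes Rcan1 a calcineurin readout. The siRNA against uc.323 has a sense strand of 19 bases, as given in the treatment protocol, without its dT overhang.
si-uc.323: gguaaguaauuucagcaau
The promoters are the 250 bases before the transcript start in RefSeq (build GRCr8, minus strand for both), with each copy of the NFAT core, GGAAA on either strand, in capitals.
Rcan1 (chr11:45118237-45118486): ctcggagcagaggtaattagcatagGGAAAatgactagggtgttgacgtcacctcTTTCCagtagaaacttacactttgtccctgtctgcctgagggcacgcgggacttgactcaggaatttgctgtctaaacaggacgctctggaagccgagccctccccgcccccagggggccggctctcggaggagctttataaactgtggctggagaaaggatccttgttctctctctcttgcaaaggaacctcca
Rcan2 (chr9:24672190-24672439): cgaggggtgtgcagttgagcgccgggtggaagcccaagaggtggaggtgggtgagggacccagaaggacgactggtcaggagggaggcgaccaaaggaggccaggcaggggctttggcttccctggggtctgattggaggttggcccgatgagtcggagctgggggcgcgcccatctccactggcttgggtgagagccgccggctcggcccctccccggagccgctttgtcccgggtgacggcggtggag
The Rcan1 window holds 2 copies of the core, starting 225 and 195 bases before the transcript start, and the Rcan2 window holds 0. At least 1 copy occurs in 56.9% of all 33469 promoter windows of this length and at least 2 copies in 22.9%, so the letters alone do not single out Rcan1. Of the 12 listed windows of 8 member genes (2 of the 3 Xirp1 windows overlap), 7 hold the core. The M-CAT element CATTCC, the site of TEAD factors, occurs on either strand in 2 of the 12, in Ankrd23 and at one of the 2 starts of Fhl2, against 12.1% of all windows. Ankrd1 and Csrp3 were not in the promoter table. A match of letters is a description and not a site.

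Intensities are given below as log2 values relative to the 75th percentile of each array, which is set to 0, and differences as si-uc.323 minus si-scramble on that log2 scale. The groups were compared with limma across all 21995 probes detected well above background throughout either group (3 of 3 arrays), with Benjamini-Hochberg adjustment over all of them and a threshold of 0.05. The arrays lay on 2 slides, as inferred from shared scan identifiers: slide 1 held the 3 si-scramble arrays and si-uc.323 replicate 1, and slide 2 held si-uc.323 replicates 2 and 3. Between 71.9% and 73.9% of probes were well above background on slide 1, against 78.2% and 86.5% on slide 2. The 75th percentile was 1182 to 1381 intensity units for the 4 arrays of slide 1, and 1718 and 1775 for those of slide 2. A fit with slide as a block takes its contrast from si-uc.323 replicate 1 alone, and the number of arrays limits the precision.

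None of the 9 tested probes passed the threshold with limma (lowest adjusted p = 0.0722, for Ankrd1), where 5.89% of all tested probes did (3.48% higher and 2.41% lower). At an unadjusted p under 0.05 there were 4 of the 9, in Ankrd1, Fhl2 and Rcan1 (both probes), against 28.3% of all tested probes. All 9 differences were 0 or above, with a median of 0.32 and a range from 0.00 to 0.54, while the median over all tested probes was 0.06 and 56.4% of them were positive. The values of the groups did not overlap for 5 of the 9 probes, against 35.4% of all tested probes. Positive signs depended in part on the scaling: shifting the arrays to a common median moved the median of all probes from 0.06 to -0.05, and 7 of the 9 members were then positive. Without si-uc.323 replicate 2, 3 of the 9 passed as higher (Ankrd1, Fhl1 and Fhl2), while the count over all probes went from 1295 to 3247. With array weights 5 of the 9 passed as higher, under a setting where 6543 of all 21995 tested probes passed. The passes with array weights given below are to be read beside that count.

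**Figure D1:**
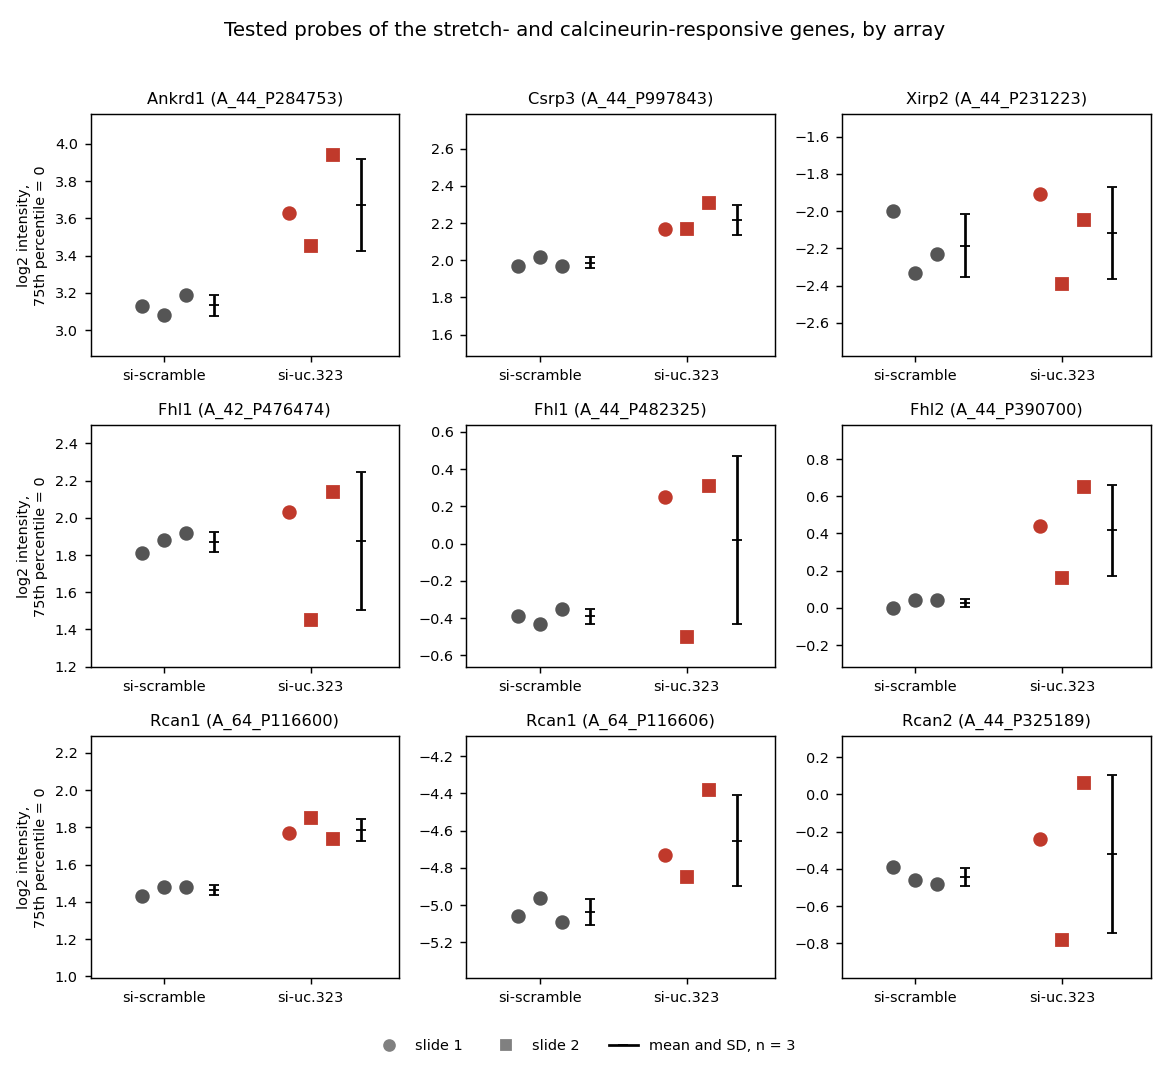
Log2 intensity of the 9 tested member probes on each array, relative to the array's 75th percentile (y axis, with the same span in each panel), for si-scramble (grey) and si-uc.323 (red). Circles are arrays of slide 1, squares arrays of slide 2, and bars the mean and SD of 3 arrays. The si-scramble arrays lie close together in all panels but that of Xirp2, and si-uc.323 replicate 2, the middle red point, is the lowest si-uc.323 array for Ankrd1, Xirp2, Fhl1, Fhl2 and Rcan2 and for the dimmer Rcan1 probe.

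Ankrd1, the cardiac ankyrin repeat protein, had the largest difference of the 9 tested probes at the main settings and the lowest adjusted p among them, and it did not pass. The Fhl1 probe A_44_P482325 had a larger difference with array weights (0.55 against 0.48), with the slide as a block or slide 1 alone (0.64 against 0.49) and without si-uc.323 replicate 2 (0.67 against 0.65). The Ankrd1 probe (A_44_P284753, transcript NM_013220) read 3.13, 3.08 and 3.19 on si-scramble replicates 1, 2 and 3. On si-uc.323 replicates 1, 2 and 3 the Ankrd1 probe read 3.63, 3.45 and 3.94. All 3 si-uc.323 arrays lay above all 3 si-scramble arrays, by at least 0.25, and they spread more widely (SD 0.25 against 0.06, n = 3 each). The difference was 0.54 ± 0.15 (SE), or 1.45-fold, with an unadjusted 95% interval of 0.19 to 0.89 (limma, adjusted p = 0.0722). A slide block gave 0.49 (adjusted p = 0.341). The call depended on the settings: the adjusted p was 0.0385 with normexp background correction, 0.0379 with a trended and robust prior, 0.0104 with array weights and 0.0359 without si-uc.323 replicate 2, with differences of 0.56, 0.54, 0.48 and 0.65. Over the 19 alternatives the difference ran from 0.40 to 0.65.

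The other ankyrin repeat members, which are more typical of skeletal muscle, were at the edge of detection. Ankrd2 (A_44_P262593, NM_001107589) read -7.00, -6.72 and -6.50 on si-scramble replicates 1 to 3 and -6.81, -6.95 and -6.29 on si-uc.323 replicates 1 to 3. It was well above background on none of the si-scramble arrays and on si-uc.323 replicates 2 and 3, the brighter arrays of slide 2. Ankrd23 (A_64_P069739, NM_001108211) read -7.35, -6.88 and -7.18 on the si-scramble arrays and -7.01, -7.03 and -6.30 on the si-uc.323 arrays, and was well above background on si-uc.323 replicate 3 alone. The groups overlapped for both genes. Neither entered the test, and no fold is given, because the si-uc.323 mean (-6.68 for Ankrd2 and -6.78 for Ankrd23) was below the detection limit of the si-scramble arrays (-6.52 and -6.62, the mean over arrays of the higher of the lowest probe above background and the probe's own value).

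**Figure D2:**
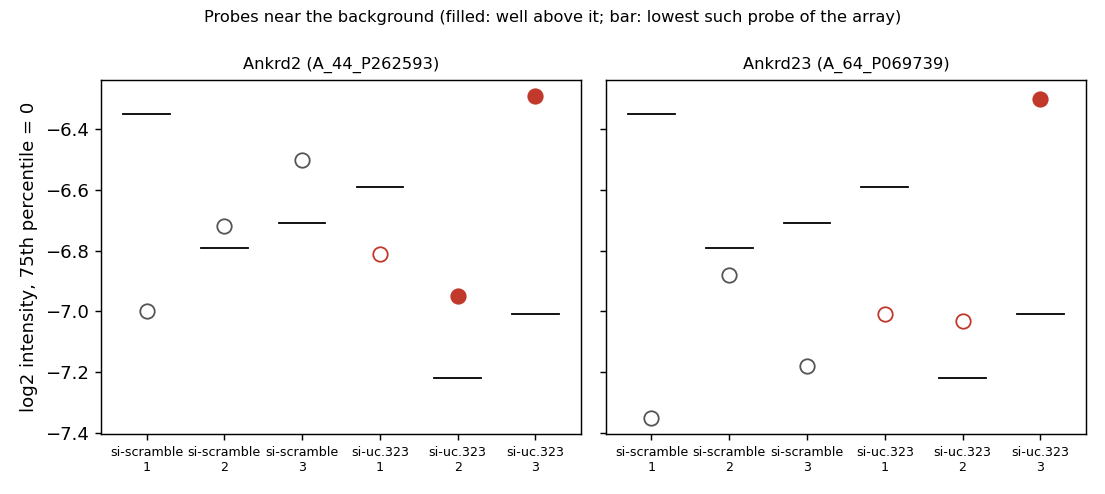
Log2 intensity of the Ankrd2 and Ankrd23 probes on each of the 6 arrays, relative to the array's 75th percentile (y axis). Filled points were well above background and open points were not, and each bar is the lowest probe that was well above background on that array. The 3 filled points all belong to si-uc.323 replicates 2 and 3, where the bars are also lowest, at -7.22 and -7.01.

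The LIM-domain members showed 3 different patterns, and none passed. Csrp3, muscle LIM protein, whose loss causes dilated cardiomyopathy in mice, read 1.97, 2.02 and 1.97 on the si-scramble arrays and 2.17, 2.17 and 2.31 on the si-uc.323 arrays (A_44_P997843, NM_057144). The groups did not overlap, but were only 0.14 apart. The difference was 0.23 ± 0.11 (95% interval -0.02 to 0.48; limma, adjusted p = 0.202), and Csrp3 had the smallest si-uc.323 SD of the tested member probes (0.08) after the brighter Rcan1 probe.

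Fhl2, which binds titin and calcineurin and is abundant in the heart, read 0.00, 0.04 and 0.04 on the si-scramble arrays and 0.44, 0.16 and 0.65 on the si-uc.323 arrays (A_44_P390700, NM_031677). Every si-uc.323 array was higher, replicate 2 by the least. The difference was 0.39 ± 0.14, or 1.31-fold (95% interval 0.05 to 0.73; limma, adjusted p = 0.137). It passed with array weights (0.40, adjusted p = 0.0148) and without si-uc.323 replicate 2 (0.52, adjusted p = 0.0389), and was 0.41 with the slide as a block (adjusted p = 0.396).

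Fhl1, the skeletal and cardiac member of the same family, has 2 probes, and they differed. The probe for NM_001033926 (A_42_P476474) is spotted 10 times on each array and read 1.81, 1.88 and 1.92 with si-scramble and 2.03, 1.45 and 2.14 with si-uc.323. The si-uc.323 arrays lay on both sides of the si-scramble arrays, and the difference was 0.00 ± 0.19 (95% interval -0.44 to 0.44; limma, adjusted p = 0.994). Its 10 spots had an SD of only 0.03 to 0.06 within an array, and on si-uc.323 replicate 2 they ran from 1.40 to 1.52, so the low value of that array was shared by all its spots. The probe for NM_145669 (A_44_P482325) read -0.39, -0.43 and -0.35 with si-scramble and 0.25, -0.50 and 0.31 with si-uc.323. Replicates 1 and 3 of si-uc.323 were high and replicate 2 was below every si-scramble array. The difference was 0.41 ± 0.22 (95% interval -0.10 to 0.92; limma, adjusted p = 0.262), it was 0.64 with the slide as a block (adjusted p = 0.351), and it passed with array weights (0.55, adjusted p = 0.0187) and without si-uc.323 replicate 2 (0.67, adjusted p = 0.025).

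Taken within each array, the second Fhl1 probe minus the first was -2.20, -2.31 and -2.26 with si-scramble and -1.78, -1.95 and -1.83 with si-uc.323. On every si-uc.323 array, replicate 2 included, the second probe was thus closer to the first than on any si-scramble array. The mean shift was 0.41 (SD 0.06 and 0.09 within the groups; exact permutation test, 2-sided p = 0.10, the smallest that 3 against 3 arrays can give). The probes are assigned to different RefSeq transcripts of Fhl1, which is spliced into several isoforms. Which isoforms each probe detects was not examined, and this pair was singled out after its values were seen.

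Xirp2, the larger Xin protein, which bundles actin filaments, did not differ in a steady direction. Its probe (A_44_P231223, NM_201989) read -2.0, -2.33 and -2.23 on the si-scramble arrays and -1.91, -2.39 and -2.05 on the si-uc.323 arrays. The ranges overlapped almost entirely. The difference was 0.07 ± 0.16 (95% interval -0.31 to 0.45; limma, adjusted p = 0.798), was 0.28 with the slide as a block, and took a negative sign under the median shift (-0.03), quantile normalization (-0.04) and normexp (-0.05).

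For Rcan1, the inhibitor and readout of calcineurin, both probes were higher with si-uc.323 and neither difference passed. The brighter probe (A_64_P116600, NM_153724) had the smallest si-uc.323 SD of the tested member probes, and read 1.43, 1.48 and 1.48 with si-scramble and 1.77, 1.85 and 1.74 with si-uc.323. The groups did not overlap and were 0.25 apart, with an SD of 0.03 and 0.06. The difference was 0.32 ± 0.10, or 1.25-fold (95% interval 0.08 to 0.56; limma, adjusted p = 0.0987). It stayed between 0.29 and 0.35 when single arrays were left out, was 0.30 with the slide as a block (adjusted p = 0.399), and passed with array weights alone (0.30, adjusted p = 0.0195). Replicate 2, the lowest si-uc.323 array for most members, was the highest for this probe.

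A dimmer Rcan1 probe for the same transcript (A_64_P116606) read -5.06, -4.96 and -5.09 with si-scramble and -4.73, -4.85 and -4.38 with si-uc.323. These groups did not overlap either. The difference was 0.39 ± 0.15 (95% interval 0.04 to 0.73; limma, adjusted p = 0.141), and it was 0.00 with normexp, whose added offset of 50 intensity units is of the size of the signal of this probe (34.6 to 85.1 units). With array weights it passed (0.35, adjusted p = 0.0255). The within-array distance of the Rcan1 probes shifted by 0.06 between the groups (exact permutation test, 2-sided p = 0.90). With an SD of 0.30 for this distance in si-uc.323 and a smallest possible p of 0.10, this does not show that the probes changed alike. The transcript assignment does not tell apart the Rcan1 isoforms of the internal promoter and of the upstream one.

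Rcan2, the related calcineurin regulator, read -0.39, -0.46 and -0.48 with si-scramble and -0.24, -0.78 and 0.06 with si-uc.323 (A_44_P325189, NM_175578). Replicates 1 and 3 were above every si-scramble array and replicate 2 was below every one. The difference was 0.12 ± 0.21 (95% interval -0.36 to 0.61; limma, adjusted p = 0.727), and a slide block gave 0.20. It was -0.06 without si-uc.323 replicate 3 and 0.35 without replicate 2, so its direction rested on single arrays.

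**Figure D3:**
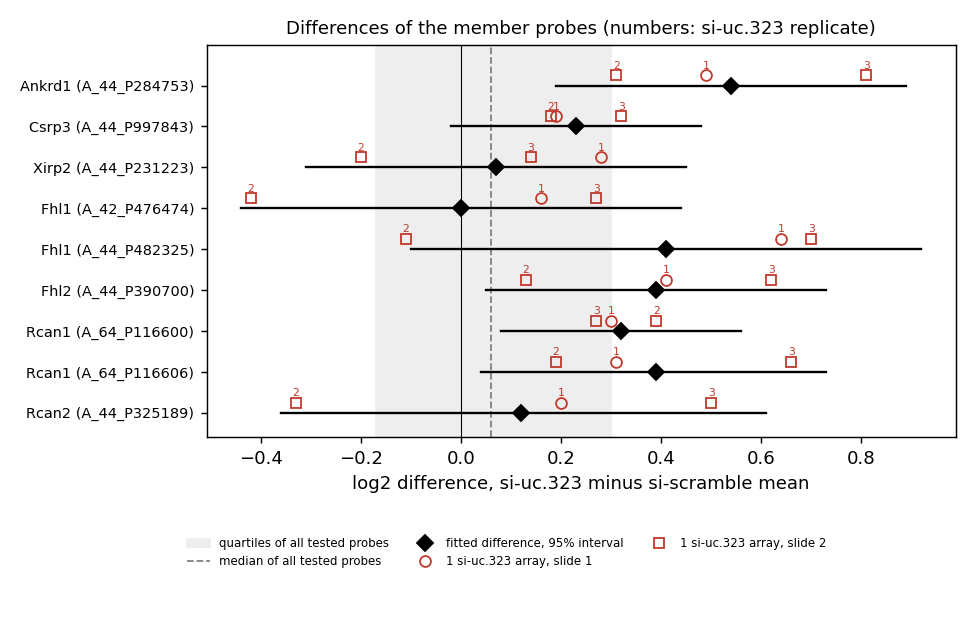
Log2 difference from si-scramble (x axis) for each tested member probe (y axis). Diamonds and lines are the fitted differences with their unadjusted 95% intervals, open red symbols the difference of each si-uc.323 array from the si-scramble mean, numbered by replicate, and the grey band and dashed line the quartiles (-0.17 and 0.30) and median (0.06) of all tested probes. Ankrd1, Fhl2 and both Rcan1 probes have intervals above 0, and replicate 2 lies left of 0 for Xirp2, both Fhl1 probes and Rcan2.

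The members also differed in how widely the si-uc.323 arrays spread. All 9 probes had a larger SD in si-uc.323 than in si-scramble, as did 80.8% of all tested probes, and the median SD over all tested probes was 0.22 against 0.11. The SD in si-uc.323 was 0.37 and 0.45 for the Fhl1 probes and 0.42 for Rcan2, which 18.5%, 10.9% and 13.2% of all tested probes exceeded. At the other end, 94.9% of all tested probes had a larger SD than the brighter Rcan1 probe and 91.2% a larger one than Csrp3. Against the si-scramble mean, all 9 probes were higher on si-uc.323 replicate 1 (median 0.30) and on replicate 3 (median 0.50), and 5 of 9 on replicate 2 (median 0.13). The same medians over all tested probes were -0.02, 0.17 and 0.03. For the member medians, replicates 2 and 3, both of slide 2, lay furthest apart. Over all tested probes it was replicates 1 and 3, which were on different slides. The part of the slide in this was not tested.

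By likeness over the 6 arrays, the genes closest to Ankrd1 were Sumf2, Picalm and Cnksr3, whose centred values differed from those of Ankrd1 by a root mean square of 0.027, 0.028 and 0.029 on the log2 scale. Like Ankrd1 they did not pass (limma, adjusted p of 0.0866, 0.0856 and 0.0812). This follows from the choice, as they were picked from all named genes for their likeness on these same 6 arrays.

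Relatives of the members outside the list gave no call either. Of 8 tested probes of 7 family relatives none passed. An unadjusted p under 0.05 was found for 3 of the 8, against 28.3% of all tested probes (limma). The lowest adjusted p belonged to Lmcd1, a LIM protein known to promote calcineurin signalling in the heart, which read -1.76, -1.57 and -1.74 with si-scramble and -1.10, -1.32 and -0.83 with si-uc.323. Its difference was 0.61 ± 0.15 (limma, adjusted p = 0.0584). Csrp1, the smooth muscle relative of Csrp3, followed with 0.39 ± 0.14 (limma, adjusted p = 0.137).

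In the calcineurin and NFAT pathway, 2 of 36 tested probes rose and 2 fell. That was 11.1% in all, against 5.89% of all tested probes, and the median difference was 0.02. Trpc6, a calcium-permeable channel upstream of calcineurin, rose by 0.62 ± 0.13 (limma, adjusted p = 0.0398), with values of -2.31, -2.14 and -2.37 in si-scramble and -1.69, -1.50 and -1.77 in si-uc.323. Calm3, one of the genes for the calcium sensor calmodulin, rose by 0.45 ± 0.10 by one probe (limma, adjusted p = 0.0493), while its other probe did not pass (0.19 ± 0.15, adjusted p = 0.431). Mef2a, a transcription factor that calcineurin activates, was lower by -0.59 ± 0.12 (limma, adjusted p = 0.0407), and Myoz1, calsarcin-2, a calcineurin-binding Z-disc protein, by -0.52 ± 0.12 (limma, adjusted p = 0.0483). The 4 probes of calcineurin subunits, named here for their role after their values were seen, did not pass: Ppp3ca, Ppp3cb and Ppp3cc of the catalytic subunit read 0.20, 0.15 and 0.07 and the regulatory Ppp3r1 read 0.48 ± 0.14 (limma, adjusted p = 0.0873). Under a shift to equal array medians, no probe of this list rose and 3 fell.

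Titin and other binding partners of the members gave no call among 21 tested probes of 19 genes, with a median of 0.15. At an unadjusted p under 0.05 there were 4 of the 21, against 28.3% of all tested probes (limma). Closest to passing were Trim54, a ubiquitin ligase of the sarcomere (0.52 ± 0.15; limma, adjusted p = 0.0791), and Cryab, the small heat shock protein of the Z-disc (-0.38 ± 0.11; limma, adjusted p = 0.0915). Titin itself had no matched probe.

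Genes of the YAP-TEAD and SRF pathways and stretch-gated channels had a median of 0.22 over 25 tested probes. Of these, 1 rose and none fell (4%, against 5.89% of all tested probes). It was Ccn2, a matrix-associated growth factor and YAP target, which read 3.64, 3.68 and 3.63 in si-scramble and 4.28, 4.29 and 4.40 in si-uc.323 (0.67 ± 0.10; limma, adjusted p = 0.025).

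Of 19 other genes that stretch or hypertrophy are known to induce in the heart, 2 rose and 1 fell, with a median of 0.17. That was 15.8% in all, against 5.89% of all tested probes. Whether the lists differ from all tested probes in this share was not tested. Edn1, the precursor of the vasoconstrictor and growth-promoting peptide endothelin-1, read -3.37, -3.18 and -3.32 in si-scramble and -2.34, -2.40 and -1.84 in si-uc.323, a rise of 1.1 ± 0.17, or 2.14-fold (limma, adjusted p = 0.0252). Tnc, the matrix protein tenascin C, rose by 0.89 ± 0.20 (limma, adjusted p = 0.0469). Spp1, osteopontin, was lower by -0.54 ± 0.10 (limma, adjusted p = 0.0348). Leaving out a si-scramble array ended all the calls named in this and the preceding lists, when 0, 19 and 0 of all probes passed without replicates 1, 2 and 3. None of them passed with the slide as a block, when 9 of all probes did. Without si-uc.323 replicate 1 only Ccn2, Edn1 and Mef2a of these still passed, and without si-uc.323 replicate 3 only Ccn2 and Edn1. Other scalings ended single calls: limma's adjusted p for Trpc6 was 0.0674 with a median shift, 0.0558 with quantile normalization and 0.0566 on the authors' series values, that for Calm3 was 0.109 with a median shift, that for Spp1 0.0506 on the series values, and those for Tnc and Myoz1 0.0566 and 0.0657 with normexp. Trpc6 thus passed in 7 of 19 alternatives, and Ccn2 and Edn1 in 13 each. The signs of these genes held in all the alternatives run.

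**Figure D4:**
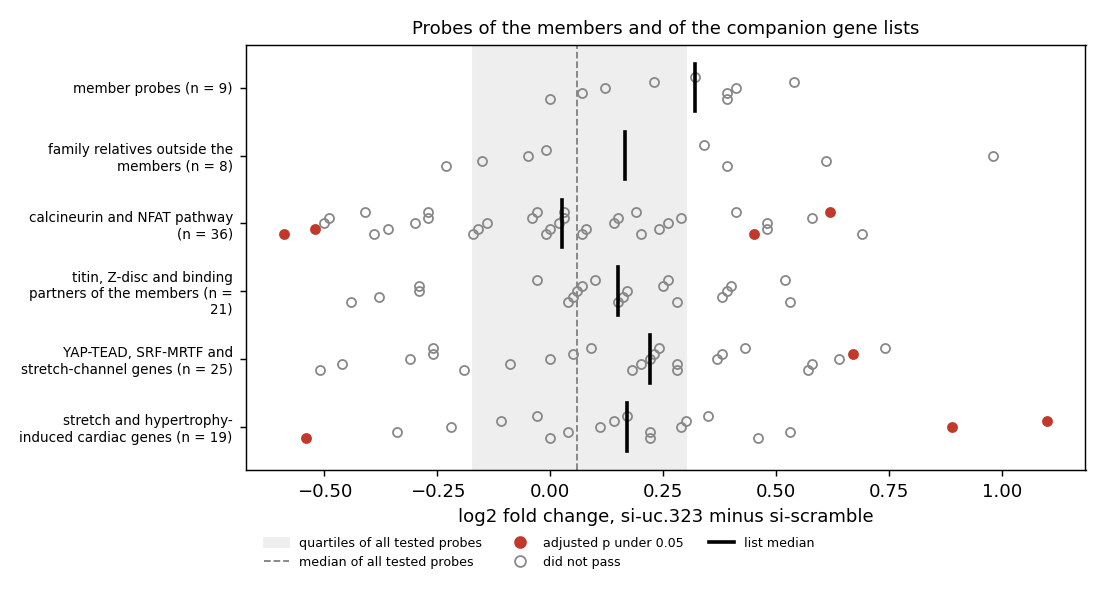
Log2 fold change, si-uc.323 minus si-scramble (x axis), of each tested probe of the members and of 5 companion gene lists (y axis). Filled red points passed the threshold, black bars are list medians, and the grey band and dashed line are the quartiles and median of all tested probes. The 9 member probes reach from 0.00 to 0.54 with no filled point, and Edn1 and Tnc are the filled points at the far right.

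All 14 probes of ventricular myocyte markers were well above background on all 6 arrays. So were 11 of 12 fibroblast probes, 9 of 9 smooth muscle and pericyte probes, 5 of 6 endothelial probes and 7 of 8 leukocyte probes. Among erythroid markers 3 of 6 probes were, and among skeletal muscle markers 6 of 11. As 20838 of 30323 probes with a value on every array also were, these counts do not show which cell types were present. Linear levels summed over a list, with the 75th percentile of an array as 1, lay between 309 and 321 in si-scramble and between 273 and 293 in si-uc.323 for the myocyte markers. Sums of the fibroblast markers overlapped (131 to 141 against 135 to 166), as did those of smooth muscle markers (39.8 to 43.9 against 41.7 to 49.8), leukocyte markers (15.1 to 15.9 against 13.2 to 17.2), erythroid markers (3.35 to 3.91 against 2.85 to 3.76) and skeletal muscle markers (1.13 to 1.35 against 1.17 to 1.41), while those of endothelial markers were lower (11.1 to 12.5 against 5.60 to 8.61). A sum is set mostly by the brightest probes of a list. The lower endothelial sums went with a median difference of 0.06 over 6 tested probes, 3 positive and 3 negative, none of which passed. Probe by probe, the smooth muscle and pericyte markers had a median difference of 0.41, with 7 of 9 tested probes positive and 5 of 9 not overlapping between groups, and the fibroblast markers one of 0.23, with 9 of 11 positive and 3 of 11 not overlapping. The myocyte markers had a median of -0.14, with 6 of 14 positive and 7 of 14 not overlapping. Over all tested probes, 56.4% were positive and 35.4% did not overlap. The median of the member probes, 0.32, thus lay between those of the fibroblast and smooth muscle lists. In bulk RNA fewer cells of a type and less RNA per cell cannot be told apart.

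Single markers that passed were Actc1, cardiac actin (-0.63 ± 0.11; limma, adjusted p = 0.0313), Postn, periostin of fibroblasts (0.69 ± 0.12; limma, adjusted p = 0.0311), and Myh11, smooth muscle myosin, by one probe (1.25 ± 0.18; limma, adjusted p = 0.0223) and not by its brighter one (0.56 ± 0.16; limma, adjusted p = 0.078). The second Myh11 probe was also among the 5 named genes closest to Ankrd1 over the arrays, outside the 3 named by rule. It was picked out here as a marker after its values were seen, and a shared cause was not tested. Hbb, a haemoglobin chain (-0.61 ± 0.13; limma, adjusted p = 0.0466), Myh1, a fast skeletal myosin (0.69 ± 0.13; limma, adjusted p = 0.0315), and Actn3, a fast-fibre actinin (-0.58 ± 0.12; limma, adjusted p = 0.0404), passed as well. These marker calls also ended when any si-scramble array was left out and with the slide block. Postn and Hbb also lost theirs without si-uc.323 replicate 1 or 3, and Myh1 and Actn3 without replicate 1. With limma, Myh1 also missed the threshold with a median shift (adjusted p = 0.0642), quantile normalization (0.064), normexp (0.0574) and the series values (0.0645), Actc1 with quantile normalization and the series values (0.0578 each), and Actn3 with normexp (0.0553). The closest to passing in the other lists were Kdr (-0.76 ± 0.20; limma, adjusted p = 0.0667) among endothelial and Cd68 (-0.41 ± 0.11; limma, adjusted p = 0.065) among leukocyte markers. Ankrd1, Fhl1, Fhl2, Edn1 and Tnc are not expressed by myocytes alone, and the part of these markers in their values was not tested.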

How the data were processed

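Total RNA of 6 cultures was labelled with Cy3 and hybridised to Agilent arrays of design 028282, per the file headers. Scans were quantified by the authors in Agilent Feature Extraction (version 11.0.1.1 in the submitters' processing notes). The deposited files hold linear spot intensity, background-subtracted within the array and not normalized between arrays, uncorrected median intensities of spots and their surroundings, and other flags. The deposited series table holds log2 values of unstated scale and centring, with a median of 6.51 in every column, and served as an alternative. Its results were close to those of quantile normalization (1827 against 1882 probes passing, and 0.58 for Ankrd1 with both). These alternatives are thus near repeats of each other. Control spots and spots flagged as outliers (322 to 594 of 42877 per array) were left out. Log2 intensity was shifted by the 75th percentile and spots of a probe were averaged. Of the probes that passed the background filter, 41 lacked a value on some array and were dropped. A probe with several spots counted as above background where at least a share of 0.5 of them did. Accessions were matched to symbols through a RefSeq table (assembly GRCr8), naming 18005 of 30367 probes, and none matched several genes. The array annotation uses build rn4, so no gene coordinates are given.

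Each of 21995 probes was tested on its own with limma 3.58.1 (lmFit, eBayes, no covariates) in R 4.3.3. The fit was also run on simulated data with equal spread in both groups and no slide effect. That run does not cover the unequal spread or the slides of these arrays. Figures were drawn with matplotlib 3.10.9. The labels call the samples independent experiments without naming litters, so a p-value here reflects only the spread among these samples. The members, lists and tests were chosen with earlier results of these data known. One gene of the stretch and hypertrophy list is not reported here. Named genes were every member probe, up to 4 called genes of each companion list or else its 2 with the lowest adjusted p, up to 2 markers per cell type and the 3 genes most like Ankrd1. Alternatives were a median shift, quantile normalization, normexp, the series values, other background filters, 1 value per gene, array weights, a trended and robust prior, blocks for replicate and slide, slide 1 alone and leaving out each array.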

Additional observations from a re-analysis of the deposited data

How the results depend on the processing

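No member probe passed with the authors' series values, quantile normalization, a median shift, either other background filter, 1 value per gene, the replicate or slide block or slide 1 alone. One passed with normexp and 1 with the trended and robust prior, 5 with array weights, and 0 to 3 when single arrays were left out. Over all probes, 1295 passed (59.2% higher); the share higher was 40.5% after a median shift, 47.3% after quantile normalization and on the series values, and 47.5% with normexp. The count was 0 without the background filter (5676 at an unadjusted p under 0.05), 2151 with the trended and robust prior, 6543 with array weights, 9 with the slide as a block, 0 on slide 1 alone (6578 unadjusted) and 0 to 3247 when single arrays were left out. With the replicate block 804 passed. Deviations of same-numbered arrays from their group means correlated at 0.201, 0.385 and -0.108. Differently numbered arrays were not compared in this way, so these values do not settle whether the numbers pair the samples. Of the list probes that passed, those of Ccn2, Edn1, Tnc and Myh11 still did with the replicate block. Signs turned for Xirp2 (-0.03 with a median shift, -0.04 with quantile normalization and the series values, -0.05 with normexp, and -0.03 to 0.21 without single arrays), for Fhl1 A_42_P476474 (-0.10 with a median shift, -0.13 to 0.21 without single arrays) and for Rcan2 (-0.06 to 0.35 without single arrays). The cause of these changes was not tested. Ankrd2 and Ankrd23 were at the edge of detection. The dimmer Rcan1 probe was well above background on all 6 arrays, but its difference went from 0.39 to 0.00 with normexp.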
